A study of Mus musculus with 4 samples.

Results

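ATAC-seq peaks whose nearest protein-coding start site belonged to an odorant or vomeronasal receptor gene were examined in mesenchymal stem cells (MSCs) of mouse bone. These receptor peaks were the autosomal peaks whose closest GENCODE M21 protein-coding start belonged to a gene named Olfr, Vmn1r or Vmn2r with a number, and they amounted to 353 of 124498 autosomal peaks and of 128055 peaks in all. Of the 353 receptor peaks, 284 lay nearest to an Olfr gene, 40 to a Vmn1r gene and 29 to a Vmn2r gene. ATAC-seq uses the Tn5 transposase to insert sequencing adapters into accessible DNA. All cells came from the hind-limb bones of C57BL6/N mice aged 3 to 5 months and were sorted as CD45-/Ter119-/Sca-1+/CD140a+ cells. The study compared hypoxia, at 2% O2, with normoxia, at 21% O2, to learn how oxygen alters chromatin, with 2 libraries in each group (the study calls them biologically independent experiments). In the study, cells grew at 2% O2 before the sort. The sorted cells were then divided between the oxygen levels and cultured for 7 days.

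Odorant receptors (Olfr) are the G protein-coupled receptors of olfactory sensory neurons in the nose, each of which expresses a single receptor gene from a single allele. Vomeronasal receptors detect pheromones in the vomeronasal organ, the Vmn1r family through the G protein subunit encoded by Gnai2 and the Vmn2r family through the subunit encoded by Gnao1. The genes lie in large clusters that are packed as heterochromatin in most cell types, and for this reason their neighbourhood serves as a view of silent chromatin. RNA of these cells was not analysed here, so silence was taken from the family and not measured.

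The sequences that the results turn on are given with mm10 coordinates. Of the 4 receptor peaks with the highest values, 3 held transfer RNA (tRNA) genes, and 1 such gene is shown for each of 3 of these peaks, read 5′ to 3′ on its own strand, with the tRNA in capitals and 30 flanking bases on each side in lower case. The tRNA genes come from the RefSeq annotation of the same build and were looked up after the sequences of the peaks had been seen.
Olfr1423 peak, tRNA-Phe gene n-TFgaa6 (chr19:12002206-12002338, plus strand): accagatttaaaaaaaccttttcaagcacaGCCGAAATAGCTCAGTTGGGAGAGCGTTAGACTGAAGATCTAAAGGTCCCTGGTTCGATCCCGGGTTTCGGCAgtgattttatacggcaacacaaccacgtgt
Olfr750 peak, tRNA-Leu gene n-TLaag8 (chr14:51063853-51063994, plus strand): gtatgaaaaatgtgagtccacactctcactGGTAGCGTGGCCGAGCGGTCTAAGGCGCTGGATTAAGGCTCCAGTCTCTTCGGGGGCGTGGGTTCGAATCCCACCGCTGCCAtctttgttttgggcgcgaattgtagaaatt
Vmn1r223 peak, tRNA-Val gene n-TVaac6 (chr13:23298751-23298883, plus strand): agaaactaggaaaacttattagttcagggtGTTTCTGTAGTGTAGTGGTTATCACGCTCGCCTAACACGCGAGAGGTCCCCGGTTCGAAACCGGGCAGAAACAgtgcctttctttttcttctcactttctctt

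The last pair are the central 300 bases of peaks that rose in normoxia and lay close to the first assembled base of a chromosome. Capitals mark bases that the assembly gives as repeats, 215 of 300 in the former and 179 of 300 in the latter.
Vmn1r2 peak (chr4:3065901-3066200, plus strand): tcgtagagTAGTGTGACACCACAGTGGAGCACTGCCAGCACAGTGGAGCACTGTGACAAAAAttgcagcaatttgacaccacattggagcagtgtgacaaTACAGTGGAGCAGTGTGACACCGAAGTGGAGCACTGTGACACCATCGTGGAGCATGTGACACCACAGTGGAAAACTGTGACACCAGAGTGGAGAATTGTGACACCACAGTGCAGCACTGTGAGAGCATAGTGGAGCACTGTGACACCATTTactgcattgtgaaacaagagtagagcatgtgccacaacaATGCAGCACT
Olfr161 peak (chr16:3241201-3241500, plus strand): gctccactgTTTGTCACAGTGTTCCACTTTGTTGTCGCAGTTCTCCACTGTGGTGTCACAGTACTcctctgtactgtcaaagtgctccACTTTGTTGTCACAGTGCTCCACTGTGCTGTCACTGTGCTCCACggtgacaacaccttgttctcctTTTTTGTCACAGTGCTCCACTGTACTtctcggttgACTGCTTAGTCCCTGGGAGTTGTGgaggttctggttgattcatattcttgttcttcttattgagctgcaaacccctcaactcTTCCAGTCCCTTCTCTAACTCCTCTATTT

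The deposited value of a peak is its number of reads per 10000000 reads of the library, not divided by peak width. Library totals ranged from 26680936 to 29965523 reads. Nuclear peaks held 49.2% and 53.2% of the total in hypoxia but 31.0% and 35.2% in normoxia, and mitochondrial peaks held 7.77% and 9.13% against 1.5% and 2.34%, so every peak value depends on how this gap is scaled. Peaks within 2 kb of a start site were found at all 5 mesenchymal genes checked (Pdgfra, Ly6a, Col1a1, Cxcl12 and Runx2) and at 1 of 3 blood genes, where Spi1 had a weak peak away from its start site and Ptprc and Cd48 had none. They were also found at 4 of 5 genes of olfactory neurons (Omp, Gnal, Adcy3 and Cngb1, but not Cnga4). Of all genes outside the receptor families, 76.4% had a start within 1 kb of a peak, so such counts do not set a list apart.

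Peaks were sparse around the receptor genes. The bases nearest to a receptor start made up 53.5 Mb of non-gap sequence and held 6.60 peaks per Mb, against 53.0 per Mb around all other genes. Peaks covered 0.807% of the former and 8.05% of the latter. Among the receptor genes, 24 of 1454 (1.65%) had a start site inside a peak, against 14047 of 19268 other genes (72.9%). A further search up to 1 kb from the start raised the receptor count to 47 genes (3.23%). Only 165 receptor genes were nearest to any peak, and 1289 were nearest to none.

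**Figure D1:**
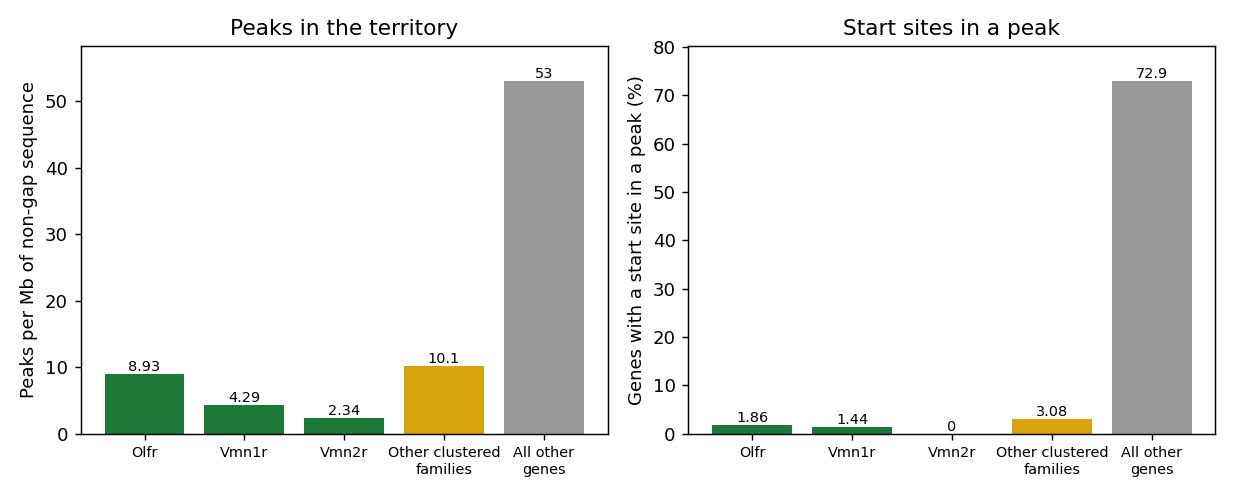
Peaks per Mb of non-gap sequence nearest to genes of each group (left) and the percentage of genes with a start site in a peak (right), for the 3 receptor families (green), 9 other clustered families together (yellow) and all other genes, which include those families (grey). The receptor families held between 2.34 and 8.93 peaks per Mb, against 53.0 for all other genes.

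The families differed in density. Olfr genes had 8.93 peaks per Mb and 21 of 1127 start sites in a peak. Vmn1r genes had 4.29 peaks per Mb and 3 of 208 start sites in a peak. Vmn2r genes had the lowest density, 2.34 peaks per Mb, and none of their 119 genes had a start site in a peak. The other clustered families (Taar, Tas2r, Krtap, Defb, Lce, Mrgpr, Mup, Fpr-rs and Skint) had 10.1 peaks per Mb and 7 of 227 start sites in a peak, 4 of them in the Mrgpr genes. Density was thus also below that of all other genes around these families. Those with any peak ran from 10.2 per Mb (Mrgpr) to 35.2 (Lce), each above the 8.93 of Olfr genes. Within this set the major urinary protein (Mup) genes, the Fpr-rs genes and the Skint genes were nearest to no peak at all. All densities counted non-gap bases, whether or not reads map to them uniquely. How far the mapping quality filter lowered the counts around similar gene copies was not tested.

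Receptor peaks gathered where a receptor gene neighboured a gene of another kind. Sequence between 2 neighbouring receptor genes made up 78.7% of the receptor territory (42.1 Mb) but held 155 peaks (43.9%), or 3.68 per Mb. Sequence between a receptor gene and a gene of another kind or a chromosome end, 11.4 Mb, held the other 198 peaks, or 17.4 per Mb. Genes of another kind also lay within clusters, so this sequence is not the outer edge of clusters alone. When receptor genes less than 1 Mb apart were joined, they formed 65 loci, of which 16 held no peak. The largest, 227 genes from Olfr987 to Olfr1274-ps over 5.07 Mb of chromosome 2, held 7 peaks. By contrast, 21 Olfr genes from Olfr459 to Olfr47 over 1.46 Mb of chromosome 6 held 30 peaks, and 128 genes from Olfr543 to Olfr692 on chromosome 7 held 26, with 8 start sites in a peak.

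Most receptor peaks lay away from annotated genes. Of the 353, 218 (61.8%) were intergenic, 67 touched an exon of a protein-coding gene, 35 lay in an intron only and 33 overlapped a noncoding gene or pseudogene only. A start site of some other annotated transcript lay within 1 kb of 39 receptor peaks. A receptor start site itself lay in 22 (6.23%), while 11.4% of other autosomal peaks held a protein-coding start site. The other shares are not given here for other autosomal peaks, so they do not set the receptor peaks apart.

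The receptor peaks were lower and narrower than others. Their median value was 11.3 and 12.9 in hypoxia, compared with 9.37 and 10.3 in normoxia, against 15.6, 16.7, 12.4 and 13.3 for the other autosomal peaks. The median width was 800 bp against 1000 bp, and per kb of width the medians of the mean value were 13.1 and 13.4. When other autosomal peaks were weighted to the same mean value and width, their medians were 11.7, 12.6, 9.74 and 10.3, and the receptor peaks' median minus theirs ran from -0.051 to 0.036 on the log2 scale over the 4 libraries. The weighting used the mean over these same 4 libraries, which largely fixed this closeness. Only 40 receptor peaks (11.3%) had a mean value of at least 50, against 18.3% of the other autosomal peaks. The median receptor peak held 32 and 38 reads in hypoxia and 25 and 31 in normoxia. A set of 2 receptor peaks, by Olfr933 and Olfr1513, was 100 bp wide and at 0 in all 4 libraries.

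**Figure D2:**
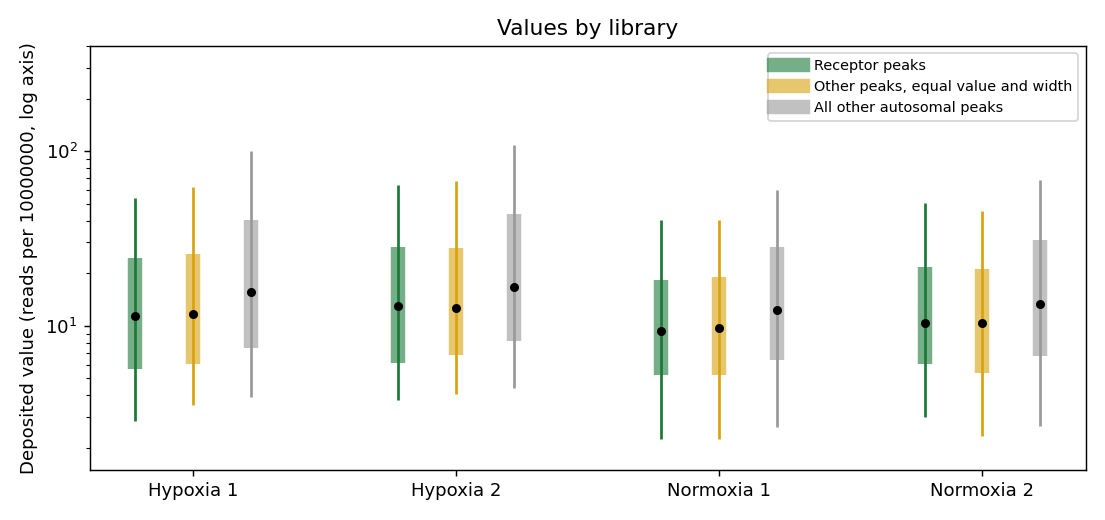
Deposited values (reads per 10000000, log axis) in each library for receptor peaks (green), other autosomal peaks weighted to equal mean value and width (yellow) and all other autosomal peaks (grey); dots are medians, thick bars the middle 50% and thin lines the middle 80% of peaks. In each library the median of the receptor peaks lay below that of all other peaks. It lay beside that of the peaks of equal value and width, which the weighting by mean value largely fixed.

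The receptor peaks held less GC and more repeat sequence than others, by their medians. The median GC content was 43.3%, against 46.0% for other autosomal peaks and 45.4% at equal value and width, and they held 6.67 CpG per kb against 10.7 and 10.0. Repeats made up a median of 18.6% of their bases, against 13.8%. In the central 300 bases of each peak, searched on both strands, the AP-1 motif TGANTCA was found in 25.2% of receptor peaks, 20.6% of other autosomal peaks and 23.8% at equal value and width. The TEAD motif GGAATG was found in 23.2%, against 21.3% and 22.4%. The RUNX motif TGTGGT was found in 26.6%, against 26.4% and 27.9%, and the E-box CAGCTG in 18.1%, against 17.1% and 17.3%. Among motifs for regulators of olfactory neurons, the EBF motif CCCNNGGG was found in 7.93%, against 9.53% and 8.87%, and the homeodomain motif TAATTA in 6.23%, against 6.96% and 6.98%. The CTCF consensus was found in 2.27%, against 1.80% and 2.33%. No test was made on these shares, and a match is not a bound site.

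Of the 4 highest receptor peaks, 3 overlapped tRNA genes. The highest of all, at chr19:12001501-12014000, lay between Osbp and Olfr1423, 22740 bp from the Olfr1423 start, and overlapped 8 tRNA genes. Its values were 806 and 905 in hypoxia (mean 856 ± 69.9, SD, n = 2) and 361 and 450 in normoxia (406 ± 63.1, SD, n = 2), with no overlap between groups, an order of the libraries that 59.5% of all peaks shared. The Olfr750 peak at chr14:51062501-51066900, with 3 tRNA genes, had 274 and 313 in hypoxia against 129 and 151 in normoxia. The Vmn1r223 peak at chr13:23297901-23301200, the highest of its family, also held 3 and had 215 and 223 against 100 and 115. In both of these peaks each normoxia library was under each hypoxia library. In all, 7 receptor peaks (1.98%) overlapped a tRNA gene, 4 of them by Vmn1r223, against 162 other autosomal peaks (0.130%). Reads from near-identical tRNA copies could have been lost or shared at the mapping quality filter, and this was not tested.

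Other high receptor peaks held no tRNA gene. The Olfr545 peak at chr7:102506701-102514400, between receptor genes on chromosome 7, had 211 and 197 in hypoxia against 132 and 166 in normoxia. The Olfr279 peak at chr15:98510301-98515000 had 176 and 202 against 114 and 119. The Olfr455 peak at chr6:42512601-42515400 had 116 and 154 against 77.6 and 106, and the Vmn2r7 peak at chr3:64964901-64968100, the highest of its family, had 82.8 and 129 against 71.6 and 74.4. These groups did not overlap on the deposited scale, but none of the 4 passed the test after scaling, with log2 fold changes between -0.21 and 0.01.

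Among wide peaks at least 10 kb from a start site, the highest per kb after the 2 with tRNA genes were by Olfr267, Olfr455, Olfr1389 and Vmn1r39. The Olfr267 peak at chr4:58748101-58750000 had 88.1 and 94.9 in hypoxia against 74.2 and 72.4 in normoxia. The Olfr1389 peak at chr11:49382501-49383800 had 50.2 and 64.3 against 38.6 and 53.4, where the groups overlapped. The Vmn1r39 peak at chr6:66848401-66849800 had 51.7 and 55.8 against 47.2 and 50.7. Per kb of width the mean values of these peaks ran from 36.7 to 43.4, and none was called.

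At the receptor start sites themselves, limma called 0 of 22 peaks in either direction after RLE scaling, against 4.57% lower and 1.77% higher over all peaks. The highest of the 22 was the 7800-bp peak by Olfr543 at chr7:102476401-102484200, at the end of its cluster, with 176 and 188 in hypoxia against 116 and 132 in normoxia (log2 fold change -0.07, SE 0.11, limma adjusted p = 0.715). The Vmn1r40 peak had 127 and 136 against 91.5 and 106 (log2 fold change 0.06, SE 0.12). The Olfr94 peak at chr17:37194401-37198200, whose edge lay 509 bp from a start site of Ubd, had 117 and 122 against 83.2 and 80.8. The Olfr550 peak at chr7:102577801-102579000 had 51.7 and 55.1 against 34.9 and 25.4, and the Vmn1r210 peak at chr13:22829301-22832500 had 40.7 and 53.7 against 25.9 and 35.4. Before scaling, the normoxia libraries lay below the hypoxia libraries in each of these, in 15 of the 22 (68.2%, background 59.5%) and above them in 1 (4.55%, background 6.94%). The Olfr433 peak at chr1:174040501-174041500 had 36.1 and 48.6 against 17.6 and 19.0 (log2 fold change -0.69, SE 0.19, limma adjusted p = 0.0153). At an unadjusted p under 0.05, limma gave 2 lower and 4 higher among the 22, and edgeR's quasi-likelihood test called 1 lower and 0 higher. On values as deposited, the Olfr543, Olfr550 and Olfr433 peaks were called lower by limma (adjusted p = 0.00785, 0.000769 and 2.29e-05), and the Olfr433 peak was also called with a GC correction and with the replicate block (0.00362 and 0.00539).

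Next, hypoxia and normoxia were compared across all receptor peaks. In the test, values were divided by relative log expression (RLE) size factors, log2(value + 1) was fitted with limma over all 128055 peaks, and a peak was called at a false discovery rate (FDR) under 0.01. Fold changes are normoxia over hypoxia. Limma called 7 receptor peaks lower in normoxia (1.98%) and 18 higher (5.10%), against a background of 4.57% lower and 1.77% higher over all peaks. At equal value and width, 3.08% of other autosomal peaks were called lower and 1.91% higher. Before scaling, both normoxia libraries lay under both hypoxia libraries in 174 receptor peaks (49.3%, background 59.5%) and above them in 39 (11.0%, background 6.94%). After RLE scaling the counts were 86 below (24.4%, background 29.6%) and 127 above (36.0%, background 27.4%). The calls rested on how limma shares the spread between peaks. Without trend and robust estimation it called 0 in either direction, with 28 lower and 62 higher at an unadjusted p under 0.05, whereas edgeR on the recovered reads called 11 lower and 22 higher.

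**Figure D3:**
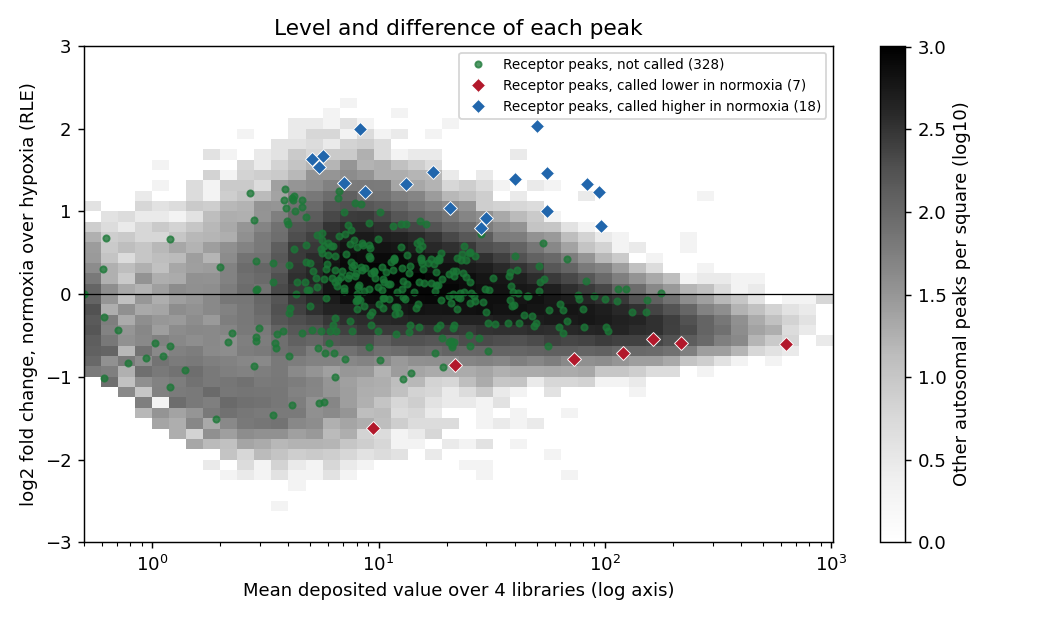
Mean deposited value over the 4 libraries (log axis, values under 0.5 drawn at 0.5) against the RLE-scaled log2 fold change of normoxia over hypoxia, for receptor peaks not called (green, 328), called lower (red, 7) and called higher (blue, 18), over the number of other autosomal peaks per square (grey). The receptor peaks spread through the cloud of other peaks, and the blue peaks of highest value lie at its upper margin.

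As a group the receptor peaks differed little from other peaks of the same height. Their median log2 fold change was 0.11, against -0.0040 over all peaks and 0.04 at equal value and width. The gap of 0.065 to the latter is set beside an SD of 0.046 between replicates, which comes from another measure. That measure is the median log2 level of receptor peaks in each library, as deposited, minus that of the peaks of equal value and width. It averaged -0.0026 in hypoxia and -0.026 in normoxia, so there normoxia was not the higher. With 2 libraries against 2 an exact permutation test cannot give a two-sided p under 0.333. On the deposited scale the medians were -0.32, -0.44 and -0.39, so the direction of the receptor peaks depended on the scaling while their gap to all peaks kept its sign. Receptor peaks held 0.0898% and 0.102% of the library total in hypoxia and 0.0646% and 0.0743% in normoxia. Of the reads in autosomal peaks, they held 0.185% and 0.194% in hypoxia (0.190% ± 0.0062, SD, n = 2) and 0.211% and 0.214% in normoxia (0.213% ± 0.0023, SD, n = 2), where the groups did not overlap. This share was not taken for peaks of equal value. Other autosomal peaks that averaged 23.0 or more, which hold many of the reads, had a median log2 fold change of -0.16. Without normoxia library 2 the gap was 0.0046, and without either hypoxia library limma called 0 receptor peaks and 0 of all peaks, with 25 lower and 42 higher receptor peaks at an unadjusted p under 0.05 without hypoxia library 1 and 19 and 58 without hypoxia library 2. Without normoxia library 2 it called 13 lower, and without normoxia library 1 it called 8 lower and 13 higher.

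**Figure D4:**
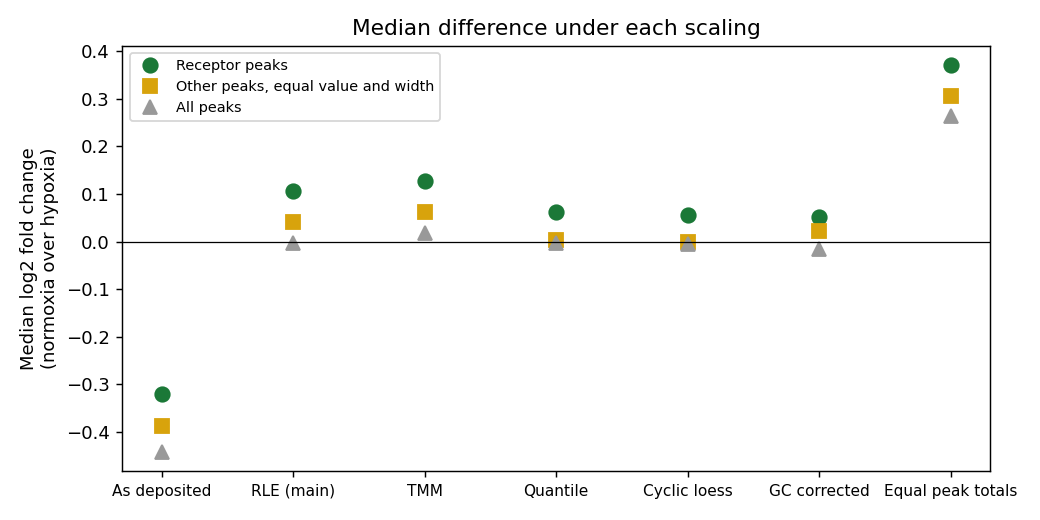
Median log2 fold change (normoxia over hypoxia) under 7 scalings, for receptor peaks (green circles), other autosomal peaks of equal value and width (yellow squares) and all peaks (grey triangles). The sign of the medians moved with the scaling, from -0.32 to 0.37 for receptor peaks, and under each scaling the receptor peaks lay above the other groups.

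Of the 7 receptor peaks that fell in normoxia, 4 overlapped tRNA genes. The Olfr1423 peak fell by 0.60 on the log2 scale (SE 0.09, limma adjusted p = 2.33e-05), the Olfr750 peak by 0.59 (SE 0.11) and the Vmn1r223 peak by 0.54 (SE 0.11). The Olfr1368 peak at chr13:21157701-21162100, with tRNA-Glu and tRNA-Phe genes, had 148 and 189 in hypoxia against 70.8 and 75.4 in normoxia and fell by 0.71 (SE 0.13). These calls depended on the scaling. After quantile normalization the log2 fold changes of the Olfr1423, Olfr750, Vmn1r223 and Olfr1368 peaks were -0.27, -0.23, -0.21 and -0.43, and after cyclic loess they were -0.073, -0.22, -0.21 and -0.43, with none of the 4 called under either (limma adjusted p from 0.0163 to 0.549). Among the 162 other autosomal peaks with a tRNA gene, 38 were called lower (23.5%) and 0 higher, against 4.57% lower over all peaks. Of other autosomal peaks that averaged 23.0 or more, 11.1% were called lower. The 162 had a median mean value of 79.8, and their share was not set beside peaks of equal height. At an unadjusted p under 0.05 these 162 gave 82 lower and 2 higher, and edgeR called 40 lower and 0 higher. The other 3 receptor peaks with tRNA genes, all by Vmn1r223, were not called, with log2 fold changes from -0.45 to 0.28. Without the 7 peaks with tRNA genes, 3 of 346 receptor peaks were called lower and 18 higher.

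The receptor peaks that fell without a tRNA gene were by Olfr875, Vmn2r87 and Vmn2r3. The Olfr875 peak at chr9:37783101-37783800, which the peak caller assigned to hypoxia only, had 15.9 and 15.6 in hypoxia against 2.62 and 3.67 in normoxia and fell by 1.62 (SE 0.32, limma adjusted p = 0.000916). This value rested on 7 reads in normoxia library 1. Repeats made up 66.9% of the bases of the Olfr875 peak, against 8.86% in the Vmn2r87 peak and 22.3% in the Vmn2r3 peak. The Vmn2r87 peak at chr10:130541501-130543600, at a lincRNA start, had 108 and 96.9 against 32.2 and 55.7 and fell by 0.78 (SE 0.17), but without normoxia library 1 the log2 fold change was -0.45 and the peak was not called (limma adjusted p = 0.0482). It also lost the call after quantile normalization (-0.61) and cyclic loess (-0.60). The Vmn2r3 peak at chr3:64251201-64252200 had 28.3 and 34.3 against 10.5 and 13.7 and fell by 0.86 (SE 0.22). In all 7 the deposited values of the groups did not overlap, an order that 59.5% of all peaks shared and that the call itself favours.

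Of the 18 receptor peaks that rose in normoxia, 8 lay within 500 kb of the first assembled base of a chromosome, next to the centromere. There were 12 receptor peaks in such sequence, on chromosomes 4, 16 and 18, and all 12 had a positive log2 fold change, with a median of 1.22. Their median share of repeat bases was 47.9%, against 18.2% in the other 341 receptor peaks. The Vmn1r2 peak at chr4:3061901-3070200 had 68.3 and 50.3 in hypoxia against 105 and 110 in normoxia (log2 fold change 1.33, SE 0.15, limma adjusted p = 6.22e-07). Its neighbour at chr4:3079301-3087300 had 79.3 and 60.9 against 120 and 117 (1.24, SE 0.14), and the peak at chr4:3050001-3056300, which began at the first assembled base, had 45.3 and 29.6 against 69.0 and 79.1 (1.46, SE 0.18). The Vmn1r3 peak at chr4:3225001-3233400 had 84.2 and 85.0 against 104 and 112 (0.82, SE 0.13). On chromosome 16 the Olfr161 peak at chr16:3238901-3243800 had 32.2 and 23.1 against 55.5 and 50.4 (1.39, SE 0.19). The lowest p belonged to the Vmn1r238 peak on chromosome 18, with 25.8 and 23.8 in hypoxia against 84.3 and 67.1 in normoxia (2.03, SE 0.17, limma adjusted p = 1.67e-09). These 6 peaks were above hypoxia in both normoxia libraries before any scaling, as were 6.94% of all peaks, and the call itself favours this order. On values as deposited 5 of them were called and the Vmn1r3 peak was not (log2 fold change 0.35, limma adjusted p = 0.114).

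The nearest receptor gene was a distant neighbour of these peaks, since the Vmn1r2 start lay 97120 bp from the first peak named and the Olfr161 start 347242 bp from its peak. Among 418 other autosomal peaks within 500 kb of the first assembled base, 10 (2.39%) were called higher and 33 (7.89%) lower, against 8 and 0 of the 12 receptor peaks by both limma and edgeR (11 higher and 0 lower at an unadjusted p under 0.05). The 418 were unlike the 12. Their medians were 18.6% repeat bases, a width of 1000 bp and a mean value of 13.9, against 47.9%, 3400 bp and 45.3. They lay on 14 chromosomes, and the 12 on 3, where neighbouring peaks are not independent. Whether reads from repeat copies outside the assembly took part in these values was not tested. Without the 12 peaks, 10 of 341 receptor peaks were called higher (2.93%) and 7 lower, and the gap to peaks of equal value and width was 0.034. This split was made after seeing the data.

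**Figure D5:**
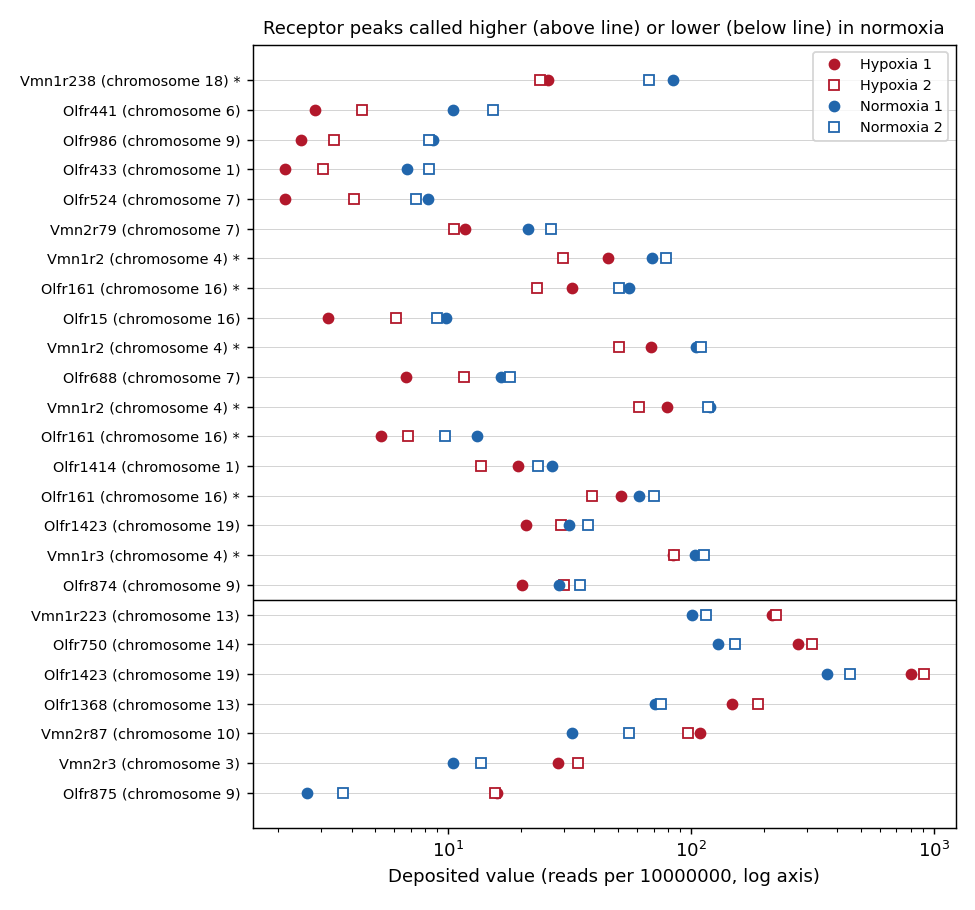
Deposited values (reads per 10000000, log axis) in the 4 libraries for the receptor peaks called higher (above the line) or lower (below the line) in normoxia, ordered by log2 fold change and named by the nearest receptor gene; asterisks mark peaks within 500 kb of the first assembled base. Of the 18 called higher, 17 had both normoxia libraries above both hypoxia libraries (6.94% of all peaks), and the 7 called lower had both below (59.5% of all peaks). The calls rest on these same values.

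The other 10 receptor peaks that rose lay more than 500 kb from the first assembled base, and none touched a receptor start site. The Vmn2r79 peak at chr7:87119701-87120800 had 11.7 and 10.5 in hypoxia against 21.4 and 26.4 in normoxia (log2 fold change 1.48, SE 0.24). The Olfr441 peak at chr6:43083601-43084100 had 2.83 and 4.42 against 10.5 and 15.4, and the Olfr688 peak at chr7:105289901-105290600 had 6.72 and 11.6 against 16.5 and 18. A second Olfr1423 peak, at chr19:12036801-12038300 and 61 bp from the start, had 20.9 and 29.2 against 31.5 and 37.7, so both directions occurred by the same gene. Those by Olfr986, Olfr433, Olfr524 and Olfr15 each had a mean value under 10, with as few as 6 reads in a library for Olfr433 and Olfr524. The remaining pair were by Olfr1414 and Olfr874, and of the 18 only the Olfr874 peak overlapped between groups before scaling.

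Calls were spread over families and positions. By family, 4 of 284 Olfr peaks, 1 of 40 Vmn1r peaks and 2 of 29 Vmn2r peaks were called lower, and 12, 5 and 1 were called higher. All 5 of the Vmn1r peaks that rose were among the 12 near the first assembled base. Between 2 receptor genes 2 of 155 peaks were called lower and 7 higher. Beside a gene of another kind or a chromosome end 5 of 198 were called lower and 11 higher. By level, the 88 lowest receptor peaks, with mean values up to 6.11, had a median log2 fold change of 0.11, against -0.10 in other autosomal peaks of that range. For the 89 highest, from 23.0 upwards, the medians were -0.02 and -0.16, and 5 (background in that range 11.1%) were called lower and 9 (1.60%) higher. For the groups of 88 between them the medians were 0.21 against 0.23 and 0.13 against 0.14. In the peak caller's own labels, 335 receptor peaks were called under both conditions, 18 (5.10%) in hypoxia alone and 0 in normoxia alone. The hypoxia label alone was given to 6.34% of other autosomal peaks.

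Genes of receptor signalling and choice were compared with the receptor peaks themselves. Of 13 genes for signal transduction in olfactory neurons, such as Gnal (the olfactory G protein subunit) and Adcy3 (its adenylyl cyclase), 11 had a peak within 2 kb of a start site. For comparison, 76.4% of all genes outside the receptor families had a start within 1 kb of a peak. None of their 14 peaks was called by limma or edgeR, and 2 were lower and 0 higher at an unadjusted p under 0.05. The Omp peak had 53.4 and 49.3 in hypoxia against 37.9 and 44.1 in normoxia. In the vomeronasal list, Gnai2 and Gnao1 had peaks and Trpc2, the ion channel of these neurons, had none. All 16 genes linked to receptor choice and silencing had a peak, and 4 of their 25 peaks were called lower and 0 higher. Over all peaks 4.57% were called lower, and among other autosomal peaks that averaged 23.0 or more 11.1%. At an unadjusted limma p under 0.05 the 25 gave 10 lower and 1 higher, and edgeR called 6 lower and 0 higher. With 1 peak per gene, the median value of the 16 genes was 139, and peaks of equal height were not compared. Called peaks lay at Ebf2 and Ebf3, whose products bind receptor enhancers in olfactory neurons, and at Cbx3 and Cbx5, which encode heterochromatin proteins. The Ebf2 peak had 237 and 260 in hypoxia against 108 and 143 in normoxia and fell by 0.52 (SE 0.12). The other clustered families had 117 peaks, of which 5 were called lower and 1 higher, against 4.57% and 1.77% over all peaks.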

How the data were processed

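The authors aligned ATAC-seq reads to mm10 with bowtie2, used samtools 1.3.1, removed duplicates with Picard, and called peaks over both groups with chromstaR in differential mode (bin 300 bp, step 100 bp, mapping quality at least 15). The deposited signal per peak and library, which the authors call RPKM, was not divided by width. In each library 100% of the deposited values were whole multiples (within 0.001) of the value of 1 read, which gave the library totals (26680936 to 29965523) and the reads per peak. Depth limits precision, since a median receptor peak held 25 to 38 reads per library. Whether reads or fragments were counted is not given in the sources used here.

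Values were scaled by RLE size factors (1.13, 1.23, 0.81 and 0.89), and log2(value + 1) was fitted with limma 3.58.1 in R 4.3.3 (lmFit, eBayes with trend and robust, two-sided), adjusted by Benjamini-Hochberg over 128055 peaks and called at an FDR under 0.01. The design fixed a test on scaled values because read counts were not expected, so edgeR 4.0.16 on the recovered reads was an alternative. The limma step was tested on simulated data. The fold change understates low peaks. Groups came from the labelled oxygen level, and p-values measure the spread between these libraries.

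Nearest starts were those of protein-coding transcripts in GENCODE M21, of the same build, measured from the peak's edge. Other autosomal peaks were weighted to the members' make-up over 50 bins of mean value and 5 of width. The territory of a gene is the non-gap sequence nearest to its starts. Named peaks were the 6 highest, the 6 of lowest p called in each direction, the 6 highest over a receptor start, the 6 highest per kb among peaks at least 1 kb wide and 10 kb from a start, and the highest of each family. Other peaks that were called are named beside them, as were tRNA genes (RefSeq annotation) and peaks near the first assembled base, after their values were seen. Members and lists were chosen with earlier results of these data known. Alternatives were other scalings, pseudocounts, filters, tests, member rules and comparison peaks, and each library left out. X-linked peaks were not members.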

Additional observations from a re-analysis of the deposited data

How the results depend on the processing

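The count of receptor peaks called lower (7) was 59 on values as deposited, 2 with equal totals over peaks, 1 after quantile normalization, 13 with a GC correction, 0 without trend and robust estimation, 14 with a replicate block, 19 with the replicate block and GC correction, 11 with edgeR, 22 at an FDR under 0.05 and 3 without peaks with tRNA genes. The count called higher (18) was 10 on values as deposited, 35 with equal totals, 0 without trend and robust estimation, 36 at an FDR under 0.05 and 10 without the peaks near the first assembled base. The median log2 fold change (0.11) was -0.32 as deposited, 0.37 with equal totals, 0.062 after quantile normalization, 0.055 after cyclic loess, 0.051 with a GC correction and 0.051 with the replicate block and GC correction. Leaving out each library gave 0 to 13 called lower, 0 to 18 called higher, medians from 0.056 to 0.14 and gaps to peaks of equal value and width from 0.0046 to 0.11. That gap (0.065) moved by less than 1 SD between replicates (0.046 for the per-library medians above) under every other alternative, and was 0.037 with GC content also made equal, 0.028 with a GC correction and 0.024 against peaks at least 100 kb from a start. The tRNA and assembled-base alternatives were chosen after seeing the data, as was a minimum of 10 reads in each group, under which 6 of 293 receptor peaks were called lower and 15 higher. The cause of these shifts was not tested.

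A replicate number marks no shared culture in the labels. The study divided sorted cells between the oxygen levels but does not say whether equally numbered libraries came from the same cells. The deviations of equally numbered libraries had a correlation of 0.011 over all peaks and 0.11 over receptor peaks, so the numbers were not read as pairs, and the replicate block moved the calls from 7 to 14 lower and from 18 to 27 higher.

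Among single named peaks, 358 values under alternatives kept their direction and side of the threshold, 52 lost the call, 9 gained it and 31 turned direction. With equal totals the calls lower were lost by Olfr750 (-0.30), Vmn1r223 (-0.25), Olfr1368 (-0.42) and Vmn2r87 (-0.50), and Vmn1r39 was called higher (0.63). Each peak that turned was uncalled in the main test. On values as deposited these were Olfr545 (-0.46), Vmn1r40 (-0.41), Olfr267 (-0.31), Olfr1389 (-0.32) and Vmn1r39 (-0.13). With equal totals, quantile normalization and cyclic loess, in that order, they were Olfr543 (0.22, 0.26 and 0.25), Olfr279 (0.075, 0.12 and 0.11), Olfr94 (0.22, 0.20 and 0.19), Olfr455 (0.21, 0.20 and 0.19) and Vmn2r7 (0.27, 0.21 and 0.21). Vmn1r210 turned with equal totals (0.14) and Vmn2r7 with TMM factors (0.0016). Over the libraries left out, the log2 fold change ran from -0.10 to 0.12 for Olfr545, -0.14 to 0.025 for Olfr94, -0.30 to 0.017 for Vmn1r210, -0.24 to 0.086 for Olfr455, -0.0098 to 0.32 for Olfr1389 and -0.29 to 0.23 for Vmn2r7. The share of receptor genes with a start in a peak rose from 1.65% to 3.23% when peaks within 1 kb counted.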

Other observations

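The X chromosome holds a single locus of this kind in the table, with 4 peaks nearest to Olfr1324, and these peaks entered no comparison above. Their values were 7.79 and 10.2 in hypoxia against 7.12 and 3.67 in normoxia at chrX:50475201-50475900, 7.08 and 9.52 against 1.1 and 3.0 at chrX:50490501-50491000, 25.8 and 22.1 against 9.0 and 18 at chrX:50537001-50538100, and 10.6 and 12.2 against 6.37 and 4.67 at chrX:50549801-50550800. Their log2 fold changes after RLE scaling were -0.27, -1.30, -0.40 and -0.51, and limma called none of them, with the lowest adjusted p at 0.0288 for the second. At an unadjusted p under 0.05 that peak was the 1 of 4 that passed.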
